A study of Mus musculus with 10 samples.

Results

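Collagen chain genes encode the polypeptides that wind around each other in trimers to form collagens, from the fibrils of connective tissue to the sheet-like networks of basement membranes. The genes described here are those named by a single collagen chain symbol in the platform's annotation, each represented by its probe set with the highest mean over the 10 arrays. They number 44 of the 22180 genes measured. RNA came from lung cells sorted from mice at postnatal day 4 and was hybridised to Affymetrix arrays, 5 per group, and both groups are labelled as alveolar epithelial type 2 cells (AEC2), the surfactant-making cells of the alveolus. SP-C+ cells carried YFP after 24 hours of lineage tracing in SftpcCreERT2-R26REYFP mice, in which the surfactant gene Sftpc drives a tamoxifen-inducible Cre. Axin2+ cells came from Axin2CreERT2-TdTomato mice, in which the Wnt target gene Axin2 drives that Cre, and were sorted as TdTomato+, EpCAM+, CD31- and CD45-. By their labels, the mice of both groups were untreated and of mixed background (C57BL/6 x 129S6 x CD-1), although the Cre of both lines is tamoxifen-inducible. The groups differed in mouse line, reporter and sorting gate as well as in the cell label, and these cannot be told apart. A tracing time was stated for SP-C+ cells only, so it cannot be told apart from the group either. The Axin2+ gate as labelled uses no AEC2 marker. Titles and stated ages give day 4 for every sample, while a description shared by the samples also speaks of younger and adult cells.

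Basement membranes lie under every epithelium, and collagen IV is their network-forming collagen. The chains of Col4a1 and Col4a2 build a trimer found in nearly all basement membranes. The chains of Col4a3, Col4a4 and Col4a5 build another, known from the alveolar wall and the kidney filter, and those of Col4a5 and Col4a6 a further one. In mouse lung, Col4a3 and Col4a4 transcripts are known from alveolar type 1 cells (AEC1), the flat gas-exchange cells. Collagens I, III and V form fibrils and are made chiefly by fibroblasts, and collagen VI forms beaded filaments next to basement membranes.

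Values are log2 signals as deposited, differences are Axin2+ minus SP-C+ on that scale with their standard errors, and a gene passed at an adjusted p under 0.05 in limma's moderated test over all genes. Of the 44 collagen chain genes, 12 passed (27.3%), against 17.6% of all genes. Of these, 7 were higher in Axin2+ cells (15.9% of the chain genes, against 8.61% of all genes) and 5 were lower (11.4%, against 8.95%), so that 58.3% of those called were higher. With every array centred on its median, the split was 6 higher and 9 lower, or 40% higher, and over all genes the share of calls that were higher went from 49.0% to 26.1%. The median difference of the 44 genes was -0.06, beside -0.04 for all genes. Of the 7 higher genes, 5 differed at least 2-fold (71.4%, against 33.5% of all genes called higher), while none of the 5 lower genes did, against 3.78% of all genes called lower. The largest fold among the lower genes was 1.78 (Col23a1). In 10 of the 44 genes the groups did not overlap, against 15% of all genes.

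**Figure D1:**
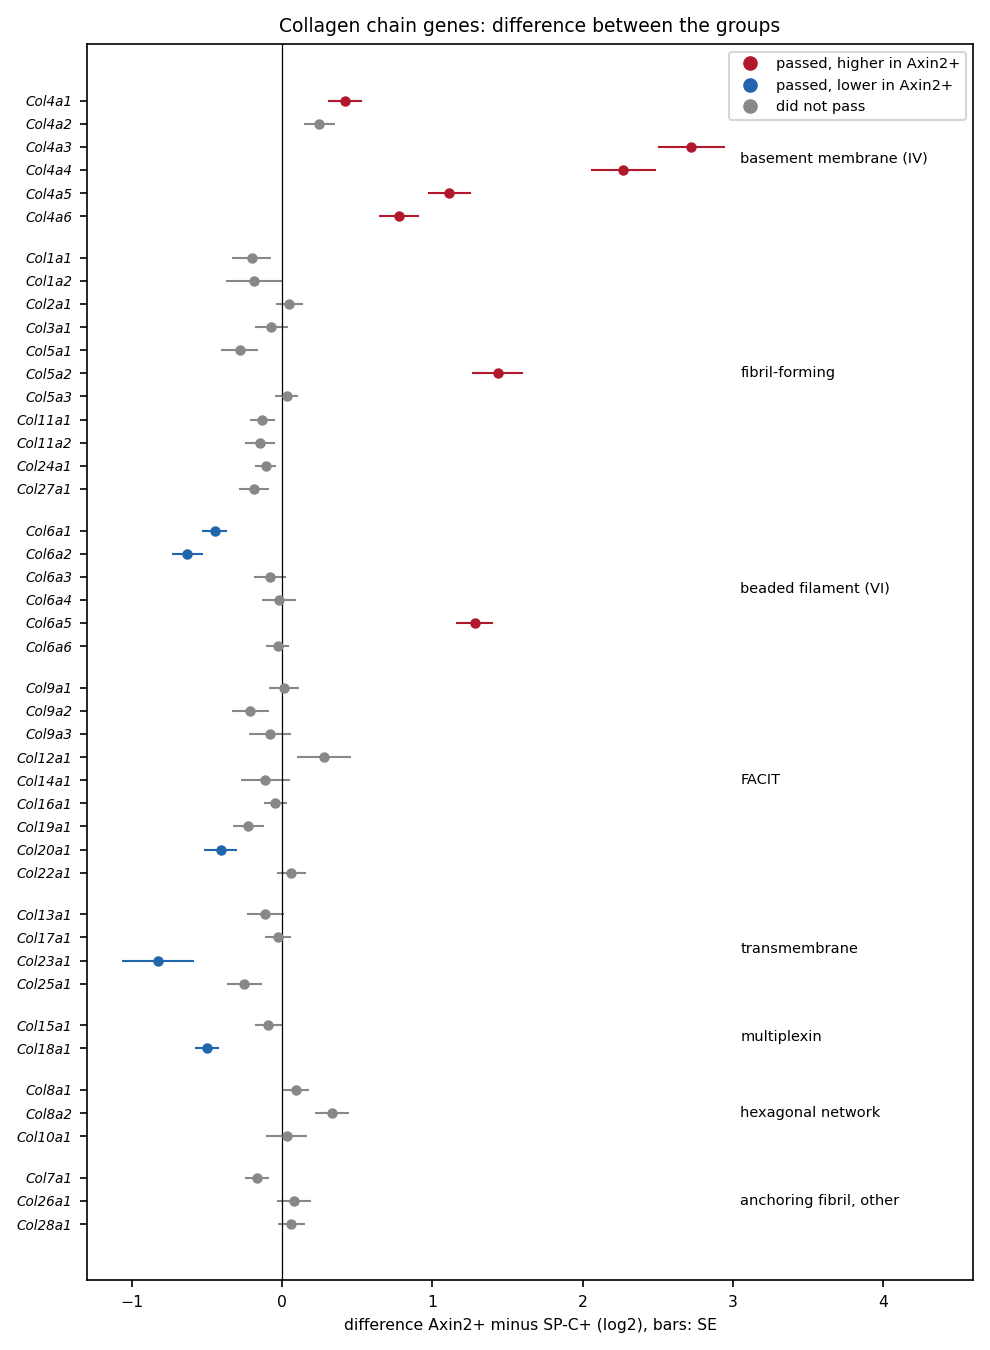
Difference between the groups for each of the 44 collagen chain genes, grouped by collagen class; points are Axin2+ minus SP-C+ in log2 units, bars are standard errors, and colour marks the genes that passed. The collagen IV genes lie at the top, from 0.25 for Col4a2 to 2.72 for Col4a3, and Col5a2 and Col6a5 are the only other points above 1.

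The 10 arrays fell into the labelled groups. Over all genes, arrays of the same group correlated at 0.987 or more and arrays of different groups at 0.983 or less. All 12 AEC2 markers listed were above the array median in both groups, and their mean lay at 13.07 to 13.13 in SP-C+ arrays and 12.86 to 12.98 in Axin2+ arrays. Of these markers 11 had a negative difference, and 2 passed as lower: Sftpd (-0.32 ± 0.08, adjusted p = 0.0167, limma) and Cebpa (-0.62 ± 0.07, adjusted p = 3.81e-05, limma). Sftpc, the only one with a positive difference, was at 14.02 ± 0.03 (SD, n = 5) and 14.11 ± 0.03, close to the highest value on the arrays (14.16), and its difference did not pass (adjusted p = 0.324, limma). Axin2 itself, by the brighter of its 2 probe sets, read 8.46 ± 0.06 in SP-C+ cells and 7.93 ± 0.12 in Axin2+ cells. The difference was -0.53 ± 0.08 (adjusted p = 0.000328, limma), so this signal was lower in the cells sorted by the reporter of the Axin2 line. The reporter marks cells in which Cre has acted, so the difference does not test the cell label. Some markers of other cell types also differed. All 16 AEC1 markers passed as higher in Axin2+ cells, against 8.61% of all genes. Their list mean was 9.18 to 9.68 in SP-C+ and 11.56 to 11.90 in Axin2+ arrays. Of 11 ciliated cell markers 10 were higher (5.50 to 5.74 and 7.90 to 8.28). Of 7 mesothelium markers, Msln, Gpm6a and Upk1b were higher (42.9%, list mean 5.77 to 6.20 and 6.90 to 7.15). Wt1, Upk3b, Lrrn4 and Rspo1 did not pass. The marker lists were drawn up with earlier results of these data known, so these counts do not independently check the cell types. In bulk RNA, fewer cells of a type and less RNA per cell cannot be told apart. SP-C+ replicate 1 stood apart in having the highest mean of all 10 arrays for the endothelium markers (7.41) and for the fibroblast and mesenchyme markers (6.28), and the highest SP-C+ mean for the AEC1 markers (9.68).

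**Figure D2:**
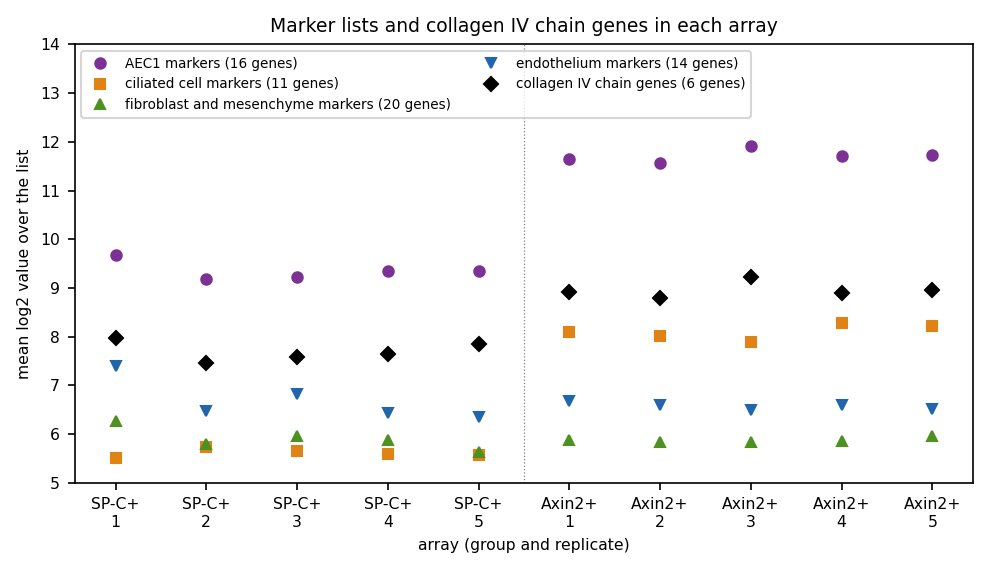
Mean log2 value over each marker list and over the 6 collagen IV chain genes in every array; each symbol is a list in a single array, and the dotted line separates the groups. The collagen IV symbols run from 7.47 to 7.97 in the SP-C+ arrays and from 8.79 to 9.23 in the Axin2+ arrays, the AEC1 and ciliated symbols are also higher in every Axin2+ array, and the fibroblast and endothelium symbols overlap between the groups.

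Collagen IV was the class with the most genes that passed: 5 of its 6 genes were higher in Axin2+ cells (83.3%, against 8.61% of all genes), none was lower, and the median difference was 0.94. Col4a3 and Col4a4, which encode the partner chains of the alveolar trimer, differed by 6.60-fold and 4.83-fold. Col4a5 (2.16-fold), Col4a6 (1.71-fold) and Col4a1 (1.34-fold) were also higher, and Col4a2 did not pass.

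Col4a3 read 8.20, 7.19, 7.11, 6.79 and 7.05 in SP-C+ replicates 1 to 5 and 9.84, 9.68, 10.37, 9.99 and 10.06 in Axin2+ replicates 1 to 5. The groups did not overlap, and SP-C+ replicate 1 was the highest of its group. The means were 7.27 ± 0.54 and 9.99 ± 0.26 (SD, n = 5 each) and the difference was 2.72 ± 0.22 (adjusted p = 1.92e-06, limma). Col4a4 read 7.83, 6.78, 6.65, 6.52 and 6.68 in the SP-C+ arrays and 9.01, 8.99, 9.49, 9.00 and 9.32 in the Axin2+ arrays. The same SP-C+ array was again the highest of its group and Axin2+ replicate 3 the highest of the other, and the groups did not overlap. The difference was 2.27 ± 0.22 (adjusted p = 8.20e-06, limma). Without SP-C+ replicate 1 the differences were larger, 2.96 for Col4a3 and 2.51 for Col4a4.

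Col4a5, whose chain takes part in both of the less widespread trimers, read 7.09, 7.01, 7.24, 7.46 and 7.77 in the SP-C+ arrays and 8.45, 8.27, 8.73, 8.28 and 8.41 in the Axin2+ arrays. All Axin2+ arrays were above all SP-C+ arrays, and SP-C+ replicates 4 and 5 were the nearest to them. The difference was 1.11 ± 0.14 (adjusted p = 0.000116, limma). Col4a6, its partner, read 6.03, 5.87, 6.04, 6.31 and 6.40 against 7.03, 6.68, 7.24, 6.67 and 6.91. Here too the groups did not overlap and SP-C+ replicates 4 and 5 were the highest of their group, and the difference was 0.78 ± 0.13 (adjusted p = 0.00119, limma). With SP-C+ replicates 1 to 3 left out, an alternative chosen after seeing the data, the Col4a6 difference was 0.55 (adjusted p = 0.0503, limma). These were the lowest SP-C+ arrays of Col4a6, so a smaller difference was fixed in advance.

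Col4a1 read 9.48, 9.08, 9.38, 9.59 and 9.80 in the SP-C+ arrays and 9.91, 9.85, 9.99, 9.90 and 9.77 in the Axin2+ arrays. SP-C+ replicate 5 lay above the lowest Axin2+ array, so the groups overlapped, and the difference was 0.42 ± 0.12 (adjusted p = 0.0249, limma). This call was lost with the arrays centred (0.32, adjusted p = 0.0596), with p-values adjusted over all probe sets (adjusted p = 0.0529), without SP-C+ replicate 3 or Axin2+ replicate 1, 3 or 4 (adjusted p up to 0.0658), and without SP-C+ replicates 1 to 3 (0.19, adjusted p = 0.263). Col4a2 read 9.16, 8.87, 9.10, 9.20 and 9.38 against 9.27, 9.26, 9.57, 9.52 and 9.32, and the groups overlapped. Its difference of 0.25 had a 95% interval of 0.02 to 0.47 and did not pass (adjusted p = 0.126, limma). It passed only when SP-C+ replicates 4 and 5 were left out, among all alternatives (0.35, adjusted p = 0.0472, limma). Replicates 4 and 5 were the highest SP-C+ arrays of both Col4a1 and Col4a2, and the split was chosen after seeing the data. The direction of the shifts under this split was therefore fixed in advance for both genes.

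**Figure D3:**
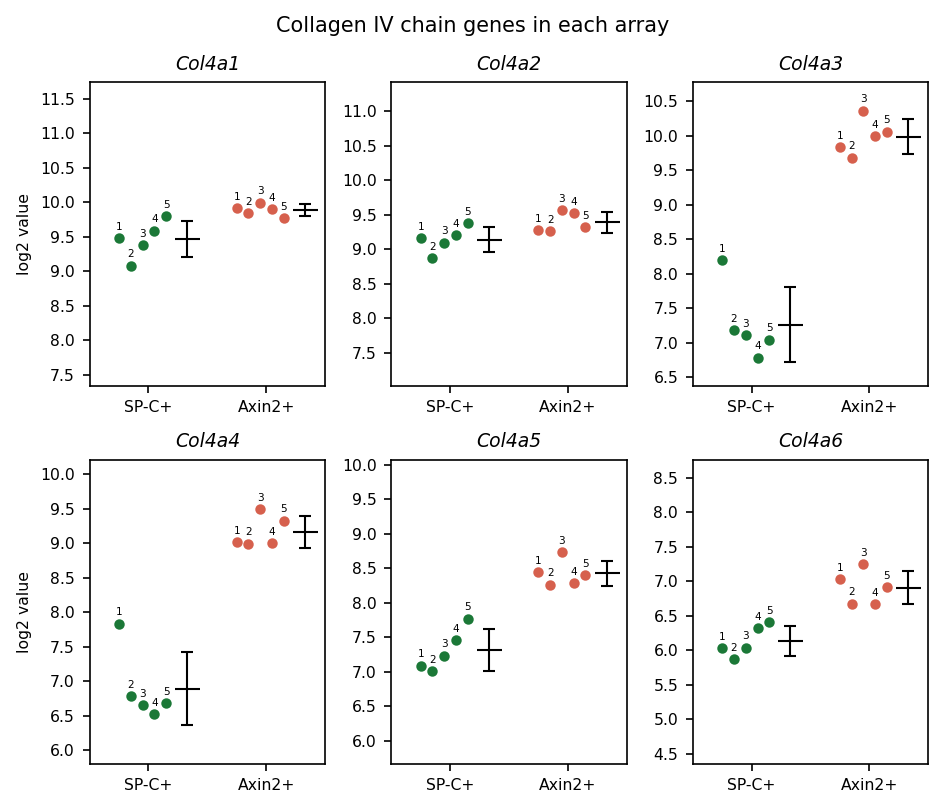
Log2 values of the 6 collagen IV chain genes in each array; numbered points are replicates 1 to 5 of each group, and the bar beside them is the mean with its SD. Every panel spans the same range of log2 units. The groups are apart in Col4a3, Col4a4, Col4a5 and Col4a6 and overlap in Col4a1 and Col4a2, and SP-C+ replicate 1 stands above its group in Col4a3 and Col4a4.

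The 6 genes lie as 3 neighbouring pairs with no protein-coding gene between the partners in the RefSeq table of GRCm38.p6: Col4a3 and Col4a4 on chromosome 1, Col4a5 and Col4a6 on chromosome X, and Col4a1 and Col4a2 on chromosome 8. The partners are transcribed away from each other. Their start sites are 71 bases apart for Col4a3 and Col4a4 and 1342 bases apart for Col4a5 and Col4a6, and the annotated transcripts of Col4a1 and Col4a2 overlap by 22 bases. Because the partners' values are read side by side below, the stretch upstream of Col4a4, which is the whole gap to Col4a3 (chr1:82586850-82586920, minus strand), and the stretches upstream of Col4a6 (chrX:141474096-141474326, minus strand) and Col4a5 (chrX:141475169-141475369, plus strand) are shown 5′ to 3′, from RefSeq, GRCm38.p6, with a CCAAT match in capitals. The bases next to the starts of Col4a5 and Col4a6 that lie in annotated transcripts were left out. They hold a GC box (GGGCGG on either strand) of Col4a5, and a GC box of Col4a6 runs from the last bases shown into them.
Col4a4: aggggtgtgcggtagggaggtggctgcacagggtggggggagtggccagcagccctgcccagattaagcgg
Col4a6: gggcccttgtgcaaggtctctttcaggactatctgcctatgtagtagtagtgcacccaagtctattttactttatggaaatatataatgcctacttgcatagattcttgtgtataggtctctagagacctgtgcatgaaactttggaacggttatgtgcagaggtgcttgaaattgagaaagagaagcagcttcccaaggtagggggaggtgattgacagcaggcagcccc
Col4a5: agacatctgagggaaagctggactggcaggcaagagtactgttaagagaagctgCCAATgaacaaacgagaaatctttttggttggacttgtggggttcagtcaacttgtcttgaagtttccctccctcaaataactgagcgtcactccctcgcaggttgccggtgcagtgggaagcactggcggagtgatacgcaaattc

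A motif search covered the 250 bases upstream of each start on both strands. Windows were found for 35 of the 44 genes, which gave 38 windows because some genes have several starts. The GC box GGGCGG was in 22 of these 38 windows and in 32.7% of all 32851 windows. Most of the 38 windows had a G and C content above the median of all windows (52.4%), and the counts were not adjusted for it. CCAAT was in 13 (33.8% of all windows), TATAAA in 5 (12.4%), the TEAD motif GGAATG in 4 (12.6%), the NKX2-1 motif CTCAAG in 6 (13.3%) and the AP-1 motif TGANTCA in 1 (6.75%). None of these motifs was in the 71 bases shown between Col4a4 and Col4a3. Letters that match a motif describe the sequence and do not show a bound site.

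Within an array, the partners of a pair kept nearly the same distance. The difference between the partners' log2 values had SDs of 0.0708 to 0.115 over the SP-C+ arrays and 0.0800 to 0.117 over the Axin2+ arrays for the 3 neighbouring pairs, against 0.0929 to 0.751 and 0.126 to 0.241 for the other 12 pairs of collagen IV genes. These spreads are a description over 5 arrays a group.

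Whether chains of the same collagen type changed by different amounts was tested on the difference between their log2 values in each array, which no scaling of whole arrays can alter. This difference still carries the effect of background signal, which makes changes of dim genes look smaller. A pass between chains of unlike signal can come from this alone, and whether it did was not tested. A two-sided exact permutation test over the 252 ways to assign the arrays was used, with a smallest possible p of 0.00794, and p-values were adjusted over the 39 pairs of chains of the same type. Of these pairs, 27 passed. Among the 15 collagen IV pairs, 14 passed, and the measured changes ran in order from Col4a3 through Col4a4, Col4a5 and Col4a6 to Col4a1 and Col4a2. Col4a3 exceeded its neighbour Col4a4 by 0.45 in its change, and Col4a5 exceeded Col4a6 by 0.34 (exact p = 0.00794 and adjusted p = 0.0129 for both). Col4a3 exceeded Col4a1 by 2.30 (exact p = 0.00794, adjusted p = 0.0129). The pair that did not pass was Col4a1 and Col4a2, with a difference of 0.17 (exact p = 0.0397, adjusted p = 0.0534).

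The gene products that bind or anchor collagen IV in the basement membrane were listed separately. Of these 8 genes, 6 were higher in Axin2+ cells (75%, against 8.61% of all genes), none was lower and 2 did not pass. Agrn, the heparan sulphate proteoglycan agrin, went from 9.69 ± 0.31 to 11.45 ± 0.16 (difference 1.76 ± 0.14, adjusted p = 1.20e-06, limma). Hspg2, perlecan, differed by 1.15 ± 0.14, Lamb2, a laminin beta chain, by 0.98 ± 0.10, and Sparc, a collagen-binding protein, by 0.92 ± 0.07. Nid1 and Nid2, the nidogens that link laminin to collagen IV, did not pass, with differences of -0.27 ± 0.19 and -0.05 ± 0.10 (adjusted p = 0.395 and 0.808, limma). The nidogens were named after their values were seen.

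The AEC1 markers given above moved in the same direction as the collagen IV genes, with SP-C+ replicate 1 and Axin2+ replicate 3 having the highest means of their groups in both lists. By gene, SP-C+ replicate 1 was the highest of its group only in Col4a3 and Col4a4, and replicate 5 was in Col4a1, Col4a2, Col4a5 and Col4a6. SP-C+ replicate 1 also had the highest SP-C+ means for the endothelium, fibroblast and mesothelium markers. What part the AEC1, ciliated or mesothelium markers have in the collagen differences was not tested.

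Among the 11 fibril-forming collagen genes, Col5a2 was 2.70-fold higher in Axin2+ cells, which makes 9.09% of the class called, below the 17.6% of all genes. None of the 11 was lower, 10 did not pass, and the median difference was -0.13. Col5a2 encodes the alpha-2 chain of collagen V, which co-assembles with collagen I and helps to set fibril width.

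Col5a2 read 5.62, 5.73, 5.60, 5.49 and 5.64 in the SP-C+ arrays and 6.88, 6.56, 6.77, 7.53 and 7.50 in the Axin2+ arrays. The SP-C+ arrays lay close together, the Axin2+ arrays were spread over almost a whole log2 unit with replicates 4 and 5 highest, and the groups did not overlap. The means were 5.61 ± 0.09 and 7.05 ± 0.44, and the difference was 1.43 ± 0.17 (adjusted p = 6.43e-05, limma). Col5a1, whose chain forms the collagen V trimer with that of Col5a2, went from 6.50 ± 0.22 to 6.22 ± 0.21, a difference of -0.28 with a 95% interval of -0.55 to -0.02 that did not pass (adjusted p = 0.143, limma). A second probe set of Col5a1 differed by 0.22, in the other direction, and did not pass either. Col5a1 passed as lower with the arrays centred (-0.38, adjusted p = 0.0293) and with quantile normalization (-0.38, adjusted p = 0.0394). It also passed when SP-C+ replicate 5 was left out (-0.38, adjusted p = 0.0307) and when replicates 4 and 5 were (-0.41, adjusted p = 0.031, limma for all). Replicates 4 and 5 were its lowest SP-C+ arrays, so the direction of these last shifts was fixed in advance.

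Col5a3, the third collagen V gene, differed by 0.03 ± 0.08 (adjusted p = 0.852, limma), with a sign that turned under centring and quantile normalization. In the test between chains, the change of Col5a2 exceeded that of Col5a1 by 1.72 and that of Col5a3 by 1.41 (exact p = 0.00794, adjusted p = 0.0129 for both). Col5a2 is next to Col3a1 on chromosome 1, with no protein-coding gene between them. Col3a1, the collagen III chain of distensible tissue, differed by -0.07, with a 95% interval of -0.31 to 0.16 (adjusted p = 0.716, limma). The difference between these neighbours was not tested.

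The collagen I genes, the main fibril genes of fibroblasts, did not pass. Col1a1 went from 7.12 ± 0.26 to 6.91 ± 0.19, a difference of -0.20 with a 95% interval of -0.48 to 0.08 (adjusted p = 0.341, limma). Col1a2 differed by -0.19 (adjusted p = 0.571, limma), with SP-C+ replicate 1 at 7.10 and the other SP-C+ arrays at 6.07 to 6.21. Markers of fibroblasts and mesenchyme other than collagens moved little: of 20 genes none was higher and 1 was lower (Pdgfra, -0.49), and their mean ran from 5.62 to 6.28 in SP-C+ and from 5.83 to 5.95 in Axin2+ arrays. None of the 10 smooth muscle and pericyte markers passed (5.82 to 6.15 and 5.80 to 6.03).

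Collagen VI genes split in direction. Among 6 genes, Col6a5 was 2.43-fold higher in Axin2+ cells, Col6a1 and Col6a2 were 1.37-fold and 1.55-fold lower, and Col6a3, Col6a4 and Col6a6 did not pass. The chains of Col6a1 and Col6a2 join another, longer chain to make the collagen VI trimer, and those of Col6a4, Col6a5 and Col6a6 are alternatives to that of Col6a3.

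Col6a1 read 11.47, 11.37, 11.52, 11.43 and 11.29 in the SP-C+ arrays and 10.88, 10.87, 10.91, 11.00 and 11.17 in the Axin2+ arrays. Every SP-C+ array was above every Axin2+ array, and the difference was -0.45 ± 0.08 (adjusted p = 0.00177, limma). A second probe set of Col6a1 was also lower, by -0.61 (adjusted p = 0.0145 over all probe sets, limma). Col6a2 read 9.96, 10.04, 10.23, 9.91 and 9.83 against 9.13, 9.21, 9.44, 9.48 and 9.55. The groups did not overlap, and the difference was -0.63 ± 0.10 (adjusted p = 0.000979, limma).

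Col6a1 and Col6a2 are neighbours on chromosome 10. Their changes differed by 0.18, which did not pass (exact p = 0.0476, adjusted p = 0.0619). As with collagen IV, the stretches upstream of these neighbours that were lower together are shown, for Col6a1 (chr10:76726045-76726294, minus strand) and Col6a2 (chr10:76623631-76623880, minus strand), from RefSeq, GRCm38.p6, with capitals marking an AP-1 match in Col6a1 and a GC box and an NKX2-1 match, both on the opposite strand, in Col6a2.
Col6a1: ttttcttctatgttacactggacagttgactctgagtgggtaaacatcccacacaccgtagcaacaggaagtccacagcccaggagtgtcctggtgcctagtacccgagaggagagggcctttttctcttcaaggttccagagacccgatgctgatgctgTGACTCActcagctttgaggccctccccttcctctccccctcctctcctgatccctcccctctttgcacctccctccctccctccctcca
Col6a2: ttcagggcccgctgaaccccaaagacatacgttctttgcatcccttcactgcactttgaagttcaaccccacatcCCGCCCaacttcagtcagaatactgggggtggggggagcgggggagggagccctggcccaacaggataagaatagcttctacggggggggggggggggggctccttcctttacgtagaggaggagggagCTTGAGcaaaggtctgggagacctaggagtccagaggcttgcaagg

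The AP-1 match of Col6a1 was the only one among the 38 collagen windows. Col6a2 has another annotated start, whose window is not shown.

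Col6a5 read 4.62, 4.88, 4.50, 5.05 and 4.92 in the SP-C+ arrays and 6.19, 5.98, 5.98, 6.37 and 5.85 in the Axin2+ arrays. All Axin2+ arrays were higher, the means were 4.79 ± 0.23 and 6.07 ± 0.21, and the difference was 1.28 ± 0.12 (adjusted p = 9.74e-06, limma). The signal of Col6a5 was below the array median in both groups. The neighbours of Col6a5 on chromosome 9 on either side, Col6a6 and Col6a4, differed by -0.03 ± 0.08 and -0.02 ± 0.11 (adjusted p = 0.844 and 0.928, limma). The sign of Col6a4 turned in 5 of the 10 fits that left out an array. The change of Col6a5 exceeded that of Col6a6 by 1.31 and that of Col6a4 by 1.30 (exact p = 0.00794, adjusted p = 0.0129 for both). Col6a3 differed by -0.08 ± 0.11 (adjusted p = 0.689, limma). Its means of 5.45 in SP-C+ and 5.37 in Axin2+ cells were much dimmer than those of Col6a1 and Col6a2. The change of Col6a1 was 0.37 below that of Col6a3, which did not pass (exact p = 0.0397, adjusted p = 0.0534), while that of Col6a2 was 0.55 below it and passed (exact p = 0.00794, adjusted p = 0.0129).

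**Figure D4:**
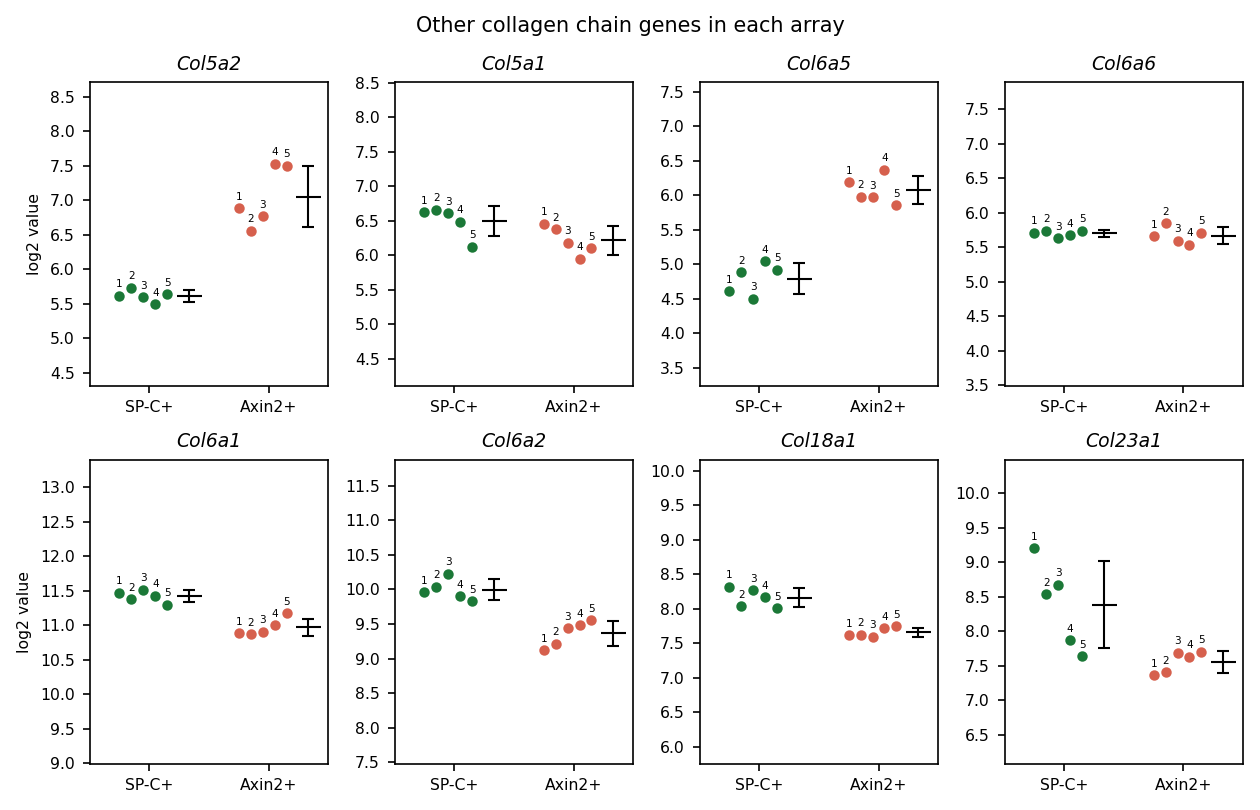
Log2 values of 8 other collagen chain genes in each array; numbered points are replicates 1 to 5 of each group, the bar beside them is the mean with its SD, and every panel spans the same range of log2 units. Col5a2 and Col6a5 are apart and higher in Axin2+ cells, Col6a1, Col6a2 and Col18a1 are apart and lower, and in Col23a1 the spread of the SP-C+ arrays reaches down to the Axin2+ arrays.

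The other 3 genes that were lower came from 3 classes. Col18a1 encodes a basement membrane collagen from which endostatin is released. It read 8.32, 8.03, 8.27, 8.17 and 8.00 in the SP-C+ arrays and 7.61, 7.62, 7.59, 7.71 and 7.75 in the Axin2+ arrays. The groups did not overlap, and the difference was -0.50 ± 0.08 (adjusted p = 0.000877, limma). It lies on chromosome 10 with 2 protein-coding genes between it and Col6a1. Col15a1, the other multiplexin, differed by -0.09 and did not pass.

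Col23a1 encodes a membrane-spanning collagen. It read 9.20, 8.53, 8.68, 7.87 and 7.64 in the SP-C+ arrays and 7.36, 7.41, 7.69, 7.63 and 7.70 in the Axin2+ arrays. SP-C+ replicates 1 to 3 were clearly higher than all others, while SP-C+ replicate 5 fell within the Axin2+ range, so the groups overlapped. The difference was -0.83 ± 0.24 (adjusted p = 0.0313, limma). It was -0.20 (adjusted p = 0.367) without SP-C+ replicates 1 to 3 and -1.25 without SP-C+ replicates 4 and 5. This split was chosen after seeing the data and follows the order of these values, so the direction of both shifts was fixed in advance. The call was lost with p-values adjusted over all probe sets (adjusted p = 0.0657) and without SP-C+ replicate 2 or 3 or Axin2+ replicate 1, 2, 3 or 4 (adjusted p up to 0.0749).

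Col20a1 belongs to the fibril-associated (FACIT) collagens. It read 7.43, 7.27, 7.27, 7.27 and 7.34 in the SP-C+ arrays and 7.10, 6.93, 6.90, 7.10 and 6.50 in the Axin2+ arrays. The SP-C+ arrays were close to each other and all above the Axin2+ arrays, of which replicate 5 was the lowest. The difference was -0.41 ± 0.11 (adjusted p = 0.0201, limma), and the call was lost both when SP-C+ replicates 1 to 3 were left out (adjusted p = 0.143) and when replicates 4 and 5 were (adjusted p = 0.053).

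The 32 chain genes that did not pass had differences from -0.28 (Col5a1) to 0.33 (Col8a2) and adjusted p-values from 0.0604 to 0.96. They were 10 fibril-forming genes, 8 of the 9 FACIT genes, 3 collagen VI genes, 3 of the 4 transmembrane genes, 1 collagen IV gene, 1 multiplexin, all 3 hexagonal network genes and all 3 genes of the anchoring fibril and other types. Of the 44 genes, 23 had signal below the array median in both groups, and dim signal leaves a change harder to see. Col17a1, the hemidesmosome collagen that ties basal epithelial cells to the basement membrane, differed by -0.03 with a 95% interval of -0.21 to 0.16 (adjusted p = 0.889, limma). Col2a1, the main cartilage collagen, differed by 0.05 (adjusted p = 0.782, limma). Of 9 other cartilage markers, 2 were higher (22.2%, against 8.61% of all genes) and 7 did not pass. Their list mean was 5.21 to 5.29 in SP-C+ and 5.31 to 5.57 in Axin2+ arrays. Col12a1, a FACIT collagen, differed by 0.28 (adjusted p = 0.344, limma). Col8a2 passed as higher under quantile normalization, without Axin2+ replicate 1, and where genes under the 25th percentile of mean signal were left out. Endothelium, a source of Col4a1, Col15a1 and Col18a1 in many tissues, was represented by 14 markers, none of which passed (list mean 6.36 to 7.41 and 6.49 to 6.68).

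Collagen chains are hydroxylated, glycosylated and folded in the endoplasmic reticulum, exported, trimmed of their propeptides and crosslinked. Of the 34 genes listed for these steps, 30 were measured. Of these, 11 were higher in Axin2+ cells (36.7%, against 8.61% of all genes), 7 were lower (23.3%, against 8.95%) and 12 did not pass, with a median difference of 0.12. By step, among 5 lysyl hydroxylation and glycosylation genes 4 were higher and none lower, and among 5 crosslinking genes 3 were higher and 1 lower. Among 9 prolyl hydroxylation genes 2 were higher and 2 lower, among 4 chaperone and export genes 1 was higher and 2 lower, and among 7 propeptide removal genes 1 was higher and 2 lower.

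P4ha3, a catalytic subunit of prolyl 4-hydroxylase, went from 5.36 ± 0.50 to 9.64 ± 0.31, a difference of 4.29 ± 0.22 (adjusted p = 2.49e-08, limma). The other catalytic subunits were lower: P4ha2 differed by -0.52 ± 0.12 (adjusted p = 0.00849, limma) and P4ha1 by -0.46 ± 0.09 (adjusted p = 0.00325, limma). Pxdn, peroxidasin, which makes the sulfilimine crosslinks of collagen IV, went from 6.19 ± 0.43 to 10.39 ± 0.40, a difference of 4.20 ± 0.22 (adjusted p = 3.16e-08, limma). Its groups did not overlap. Lox, lysyl oxidase, which crosslinks fibrillar collagen and elastin, went from 6.47 ± 0.80 to 9.21 ± 0.37 (difference 2.74 ± 0.32, adjusted p = 5.38e-05, limma). Colgalt2, a galactosyltransferase acting on hydroxylysine, differed by 2.15 ± 0.20 (adjusted p = 7.66e-06, limma).

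Some genes of the later steps were lower. Mia2, part of the machinery that loads large cargo at endoplasmic reticulum exit sites, differed by -0.93 ± 0.12 (adjusted p = 0.000172, limma). Adamts3, which removes amino-terminal propeptides, differed by -0.57 ± 0.12, and Bmp1, which removes carboxy-terminal propeptides, by -0.49 ± 0.10 (adjusted p = 0.00519 for both, limma). Pcolce, the protein that enhances Bmp1, was higher by 2.08 ± 0.14 (adjusted p = 3.30e-07, limma). Serpinh1, the collagen chaperone HSP47, was higher by 0.91 ± 0.16 (adjusted p = 0.00186, limma), and Plod2, a lysyl hydroxylase, by 1.25 ± 0.14 (adjusted p = 2.93e-05, limma). P4ha1, Pcolce, Serpinh1 and Plod2 were named after their values were seen. With SP-C+ replicates 1 to 3 left out, 7 of these 30 genes were higher and 3 lower. Calls over all genes also fell, from 8.61% to 6.78% higher and from 8.95% to 6.02% lower. P4ha2 and Adamts3 were among those that no longer passed (adjusted p = 0.087 and 0.09, limma). Replicates 1 to 3 were the highest SP-C+ arrays of Adamts3, so its smaller difference was fixed in advance.

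**Figure D5:**
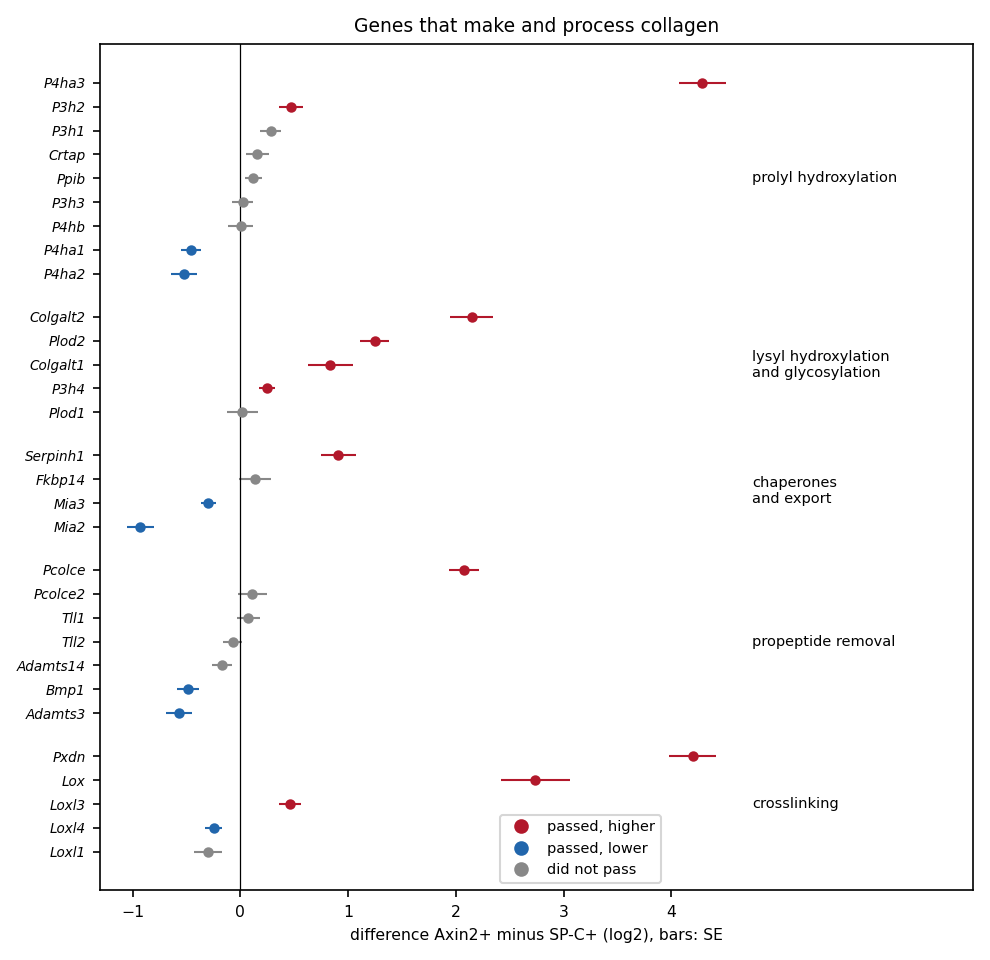
Difference between the groups for the 30 measured genes that make and process collagen, grouped by step; points are Axin2+ minus SP-C+ in log2 units, bars are standard errors and colour marks the genes that passed. P4ha3 (4.29) and Pxdn (4.20) lie farthest to the right and Mia2 (-0.93) farthest to the left.

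Receptors that cells use to sense or take up collagen were measured for 9 of the 10 genes listed. Mrc2, an uptake receptor for collagen, went from 7.47 ± 0.38 to 10.06 ± 0.20, a difference of 2.59 ± 0.17 (adjusted p = 1.82e-07, limma). Ddr1, a receptor tyrosine kinase activated by collagen, went from 8.15 ± 0.18 to 9.66 ± 0.22 (difference 1.51 ± 0.12, adjusted p = 1.06e-06, limma). Itga1, the alpha subunit of a collagen-binding integrin, was lower, with 6.87 ± 0.23 in SP-C+ and 6.21 ± 0.15 in Axin2+ cells (difference -0.66 ± 0.11, adjusted p = 0.00137, limma). The other 6 receptors did not pass, so that 22.2% of the 9 were higher (against 8.61% of all genes) and 11.1% lower (against 8.95%).

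Hemidesmosome partners of Col17a1 were measured for 7 of 8 genes, of which 3 were higher (42.9%, against 8.61% of all genes), 1 was lower (14.3%, against 8.95%) and 3 did not pass. Lama3, a chain of the laminin bound by hemidesmosomes, differed by 2.06 ± 0.16, Itgb4, the beta subunit of their integrin, by 1.55 ± 0.16, and Cd151, a tetraspanin that binds that integrin, by 0.49 ± 0.07 (adjusted p = 1.46e-06, 1.38e-05 and 0.00036, limma). Dst, which encodes the plakin BP230 among other isoforms, differed by -0.62 ± 0.10 (adjusted p = 0.000616, limma). Col17a1, with the interval given above, did not pass, and whether its change differs from those of these partners was not tested. Of the 16 receptor and hemidesmosome genes together, 5 were higher and 2 lower, beside 8.61% and 8.95% of all genes. With the arrays centred 5 were lower, beside 19.9% of all genes. Without SP-C+ replicates 4 and 5 the count was 4, beside 9.82% of all genes.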

How the data were processed

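RNA from 10 samples, 5 per group, was measured on Affymetrix arrays after amplification of 100 ng of total RNA. The authors deposited log2 values of 41345 probe sets. Per the submitters' processing notes, oligo, RMA and limma were used, without versions. Base 2 follows from the span of the values, and background signal makes changes of dim genes look smaller. The number of arrays limits the precision.

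Names came from the platform annotation, and probe sets with several symbols (1814) or none (16010) were not used. Of 45 collagen names listed, 44 matched, and Col21a1 is not analysed here. Groups came from sample titles. The comparison used lmFit and eBayes of limma 3.58.1 under R 4.3.3 (two-sided, Benjamini-Hochberg over 22180 genes, no covariates), without a filter on low values. The fit was tested on simulated data. No label says that replicates are separate animals, so p-values measure the spread between these samples, which may be technical. The text names chain genes that passed and their partners of the same type. From the lists of collagen IV partners, hemidesmosome partners, receptors and collagen-making genes it names the 4 largest rises and falls that passed. It marks other names from those lists. Sftpc and Axin2 were named as label checks. Other cell type markers (Sftpd, Cebpa, Pdgfra and the mesothelium markers) were named after their values were seen. So were chain genes that did not pass and are no partners of the same type (Col1a1, Col1a2, Col2a1, Col3a1, Col7a1, Col8a2, Col12a1, Col15a1, Col17a1, Col19a1, Col25a1). The members and lists were chosen with earlier results of these data known. Promoter windows, which hold 250 bases before and 50 after a start, came from RefSeq, GRCm38.p6, and those of Col4a3 and Col5a2 were not used here.

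Alternatives were centring, quantile normalization, filters at the 25th and 50th percentile, all probe sets or their mean, array weights, robust variances with an intensity trend, a replicate block, a threshold of 0.01 and leaving out arrays. SP-C+ replicates 1 to 3 and 4 to 5 were left out together as alternatives chosen after seeing the data.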

Additional observations from a re-analysis of the deposited data

Results flagged for a closer look

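Among 126 groups of 5 arrays examined for single arrays far from the rest, 8 (6.35%) had such an array, and chance gives about 5%. SP-C+ replicate 1 was the highest of its group in Col1a2 (7.10), Col4a3 (8.20) and Col4a4 (7.83), and the lowest in Itga1 (6.47). It was also the SP-C+ array with the highest endothelium, fibroblast and AEC1 marker means. Axin2+ replicate 3 was the highest of its group in P4ha3 (10.19), Mrc2 (10.41) and Lama3 (12.22). Col6a3 was highest in Axin2+ replicate 1 (5.77). The part of these arrays' other markers in these values was not tested.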

How the results depend on the processing

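Of the 5 chain genes that were lower, the count was 9 with the arrays centred (the added genes were Col5a1, Col7a1, Col19a1 and Col25a1), 3 at an adjusted p under 0.01 and 3 without SP-C+ replicates 1 to 3; this last choice also gave 3 collagen IV genes higher, and 7 higher and 3 lower genes that make collagen. The lower receptor and hemidesmosome genes numbered 5 with centring and 4 without SP-C+ replicates 4 and 5. Over all genes, the share called lower was 8.95% in the main fit, 19.9% with centring and 4.14% at an adjusted p under 0.01. It was 6.02% without SP-C+ replicates 1 to 3 and 9.82% without SP-C+ replicates 4 and 5. The share called higher was 8.61% in the main fit and 6.78% without SP-C+ replicates 1 to 3. The median difference of the chain genes was -0.15 with centring and -0.015 without SP-C+ replicate 1. Centring moved the median of all genes by -0.09.

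Leaving out each array in turn gave 6 to 7 higher and 4 to 6 lower chain genes, 4 to 5 collagen IV genes higher, 10 to 11 higher and 6 to 7 lower genes that make collagen, 5 to 6 collagen IV partners higher, 5 to 7 higher and 2 to 3 lower receptor and hemidesmosome genes, and a median of -0.076 to -0.015. Over all genes, these fits called 7.20% to 8.79% higher and 6.21% to 9.35% lower. Col4a1 lost its call in 4 and Col23a1 in 6 of these 10 fits, and the other 10 chain genes that passed kept theirs in all 10.

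Signs turned only in named genes that had not passed. Col5a3 was at -0.064 with centring, -0.050 with quantile normalization and -0.083 without SP-C+ replicates 1 to 3, a choice that put Col6a4 at 0.016 and Col17a1 at 0.13. With each array left out in turn, Col6a4 ran from -0.086 to 0.027, Col6a6 from -0.074 to 0.0035 and Col17a1 from -0.063 to 0.025. The cause was not tested.

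Deviations of arrays with the same replicate number correlated at -0.23 to 0.01, and none correlated best with its own number, so the numbers were not taken to pair the arrays. With the replicate number as a block, 6 chain genes were higher and 4 lower, beside 7.25% and 6.18% of all genes. Col4a1 (adjusted p = 0.0535) and Col23a1 (adjusted p = 0.0569) did not pass in that fit (limma). Signal near background limits what can be seen of the 23 dim chain genes.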
